A study of Mus musculus with 5 samples.

Results

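The miR-290 to miR-295 cluster is a group of mouse miRNA hairpins best known from embryonic stem cells. The 10 mature products described here were chosen by name: mmu-miR-290-5p, mmu-miR-291a-5p, mmu-miR-291a-3p, mmu-miR-292-5p, mmu-miR-292-3p, mmu-miR-291b-5p, mmu-miR-291b-3p, mmu-miR-293, mmu-miR-294 and mmu-miR-295, written below without the mouse prefix. They are 10 of the 593 miRNA names with a count, and 4 further products of the same hairpins (miR-290-3p, miR-293\*, miR-294\* and miR-295\*) are given beside them. Small RNA was sequenced from 5 libraries of C57BL/6 mouse testis cells, sorted magnetically by an antibody to Thy1.2, a cell surface marker by which spermatogonial stem cells can be enriched. There was 1 library of a germ cell culture derived from Thy1+ cells and kept for about 10 passages, 2 libraries of freshly isolated Thy1+ cells, and 2 libraries of the depleted Thy1- cells, whose titles call them enriched for somatic cells. For Thy1- cells the cell type field names stem cells too, against the titles, which were followed. The age of the donors, pooling, feeder cells and whether replicates came from separate animals are not given in the labels, and p-values cover the spread among these libraries only. The design asks which miRNAs differ between stem cell-enriched and depleted cells, and between cultured and fresh cells.

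A miRNA guides Argonaute proteins to messenger RNAs mainly through its seed, bases 2 to 8 counted from the 5′ end. The cluster is transcribed as a single primary RNA, from which Drosha and Dicer cut a duplex with a 5p and a 3p arm out of each hairpin. In mouse embryonic stem cells the products with the core AAGUGC in their seed promote the passage from G1 to S phase, in part by lowering Cdkn1a, an inhibitor of cyclin-dependent kinases, and they raise the yield of induced pluripotent cells. The cluster is also active in primordial germ cells, and mice without it have fewer germ cells.

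Mature sequences for 9 of the 10 members were taken from RefSeq (build GRCm38.p6). They are shown because the results below compare members that share a seed and members that lie on opposite arms. Capitals mark the seed.
miR-291a-3p: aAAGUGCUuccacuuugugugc
miR-294: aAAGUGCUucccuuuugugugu
miR-295: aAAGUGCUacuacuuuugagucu
miR-291b-3p: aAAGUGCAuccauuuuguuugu
miR-293: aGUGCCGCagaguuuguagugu
miR-290-5p: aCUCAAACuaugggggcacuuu
miR-292-5p: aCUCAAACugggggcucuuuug
miR-291a-5p: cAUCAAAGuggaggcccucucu
miR-291b-5p: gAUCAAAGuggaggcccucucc
Of these sequences, miR-291a-3p, miR-294 and miR-295 shared 1 seed, and miR-291b-3p differed from it at the last seed base. miR-293 had the core shifted, with GUGC at the start of its seed. The 5p members formed 2 seed pairs, miR-290-5p with miR-292-5p and miR-291a-5p with miR-291b-5p. The last pair differed at its ends only, by C1G and U22C (miR-291a-5p base, position from the 5′ end, miR-291b-5p base), so tags that lack both ends cannot tell them apart, and their levels are less certain for it.

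The 7 hairpins lie on the plus strand of chromosome 7 between 3218626 and 3220841 of GRCm38, within 2216 bases, in the order Mir290a, Mir291a, Mir292, Mir291b, Mir293, Mir294 and Mir295. Mir290a overlaps no exon of a protein-coding gene in GENCODE M21. The other 6 lie within the annotated UTR of exon 10 of Nlrp12, a gene on the minus strand, and so opposite to its direction of transcription.

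The culture library held 5110007 counts placed on miRNAs, the Thy1+ libraries 937002 and 947687, and the Thy1- libraries 2548234 and 4909753. Levels are counts per 1000000 of these miRNA counts (CPM), with percent intervals being exact 95% Clopper-Pearson intervals that cover counting error only. Replicates of each fresh group differed far beyond sampling noise, so each library counted as 1 sample. Of the marker lists for other testis cells, miR-202-3p and miR-202-5p, known from Sertoli cells of the mouse gonad, summed to 1138 and 2205 CPM in the Thy1+ libraries and 18584 and 3712 CPM in Thy1- libraries, and both were lower in Thy1+. All 3 red blood cell miRNAs were lower in Thy1+, at sums of 252 and 179 CPM against 1344 and 1475 CPM in Thy1-. The miR-34b, miR-34c and miR-449a products of meiotic and later germ cells summed to 196385 CPM in the culture, 106892 and 23741 CPM in the Thy1+ libraries, and 49533 and 8587 CPM in Thy1- libraries, almost all of it miR-34c. miR-449a had 39.3 CPM in the culture, 699 and 152 CPM in the Thy1+ libraries, and 325 and 10.4 CPM in Thy1- libraries. None of these 4 products was called in Thy1+ against Thy1- or in culture against Thy1+, and 2 were higher in culture against Thy1-. Of the mesenchymal miRNAs 0 of 5 were called in Thy1+ against Thy1-, with sums that overlapped, 23006 and 29905 CPM in the Thy1+ libraries and 39633 and 22762 CPM in Thy1- libraries. Of the endothelial miRNAs 0 of 2 were called, with sums of 1918 and 2605 CPM in the Thy1+ libraries and 964 and 1678 CPM in Thy1- libraries. No list marked the stem cells themselves, so the stem cell label was not checked.

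Summed over its 10 members, the cluster was most abundant in the fresh Thy1+ cells. It supplied 0.0955% (interval 0.0929 to 0.0982) of the miRNA counts in the culture, 0.762% (0.744 to 0.779) and 1.74% (1.71 to 1.77) in the Thy1+ libraries, and 0.115% (0.111 to 0.119) and 0.0699% (0.0676 to 0.0723) in the Thy1- libraries. Both Thy1+ libraries stood above the other 3, and the culture fell between the Thy1- libraries. The mean was 1.25% ± 0.691 in Thy1+ and 0.0923% ± 0.0316 in Thy1- cells (SD, n = 2 each), a ratio of 13.6, and the Thy1+ mean was 13.1 times the culture value. These shares carry no scaling between libraries, and the place of the culture depends on it. In the scaled edgeR fits below, the median log2 fold change over the members was -2.23 for culture against Thy1+ and 1.33 for culture against Thy1-. The share is low in every library: these shares rest on 4881 counts in the culture, 7137 and 16485 in Thy1+, and 2921 and 3434 in Thy1- libraries. In these bulk samples, fewer cells that carry the cluster and less of its RNA per cell cannot be told apart.

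**Figure D1:**
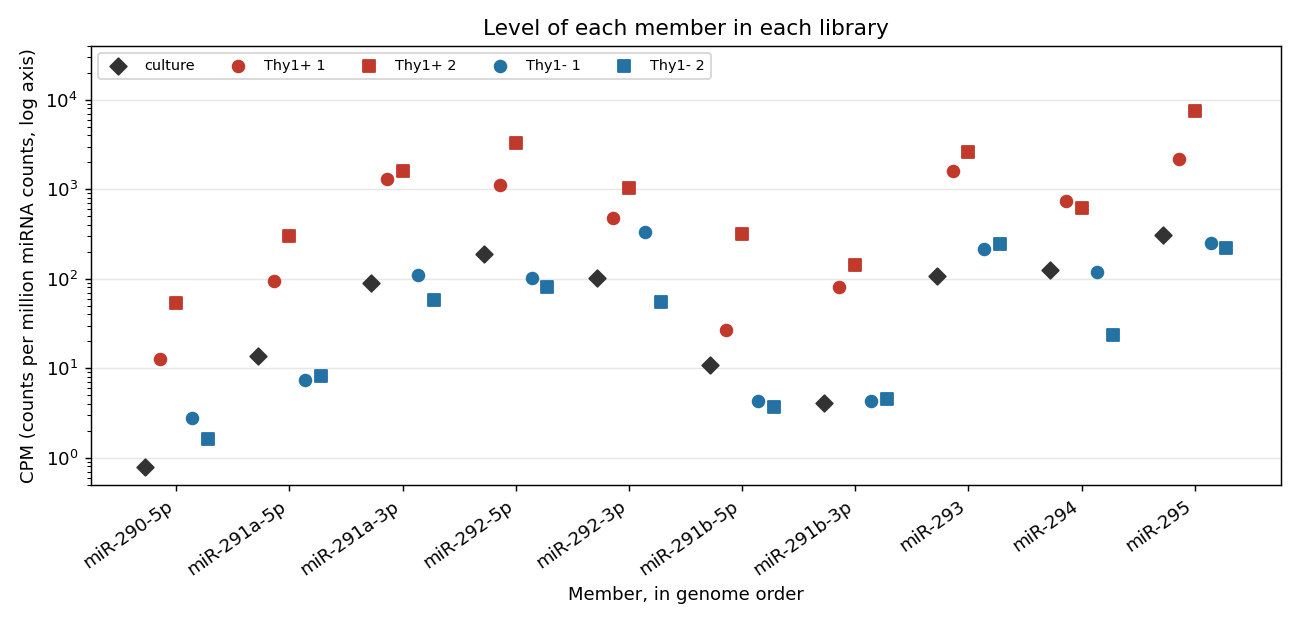
Level of each of the 10 members (x axis, genome order) in CPM on a log axis, 1 point per library, with culture in dark grey, Thy1+ in red and Thy1- in blue. The Thy1+ points lie above the Thy1- points for all 10 members, an order that 43.5% of the 425 miRNAs tested share. The highest value is that of miR-295 in the second Thy1+ library, at 7456 CPM.

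miR-295 was the most abundant member in the culture and in both Thy1+ libraries, while miR-292-3p led in the first Thy1- library and miR-293 in the second. It stood at 309 CPM in the culture, 2189 and 7456 CPM in the Thy1+ libraries, and 248 and 219 CPM in the Thy1- libraries. miR-291a-3p, with the same seed, had 90.4 CPM in the culture, 1291 and 1602 CPM in the Thy1+ libraries, and 109 and 57.4 CPM in Thy1- libraries. miR-294, the third member with this seed, had 126 CPM in the culture, 739 and 613 CPM in the Thy1+ libraries, and 120 and 23.6 CPM in Thy1- libraries. For these miRNAs of the AAGUGCU seed the Thy1+ libraries did not overlap with the other 3, as for all 10 members. Of 425 miRNAs, 43.5% had both Thy1+ values above both Thy1- values. Of 470 miRNAs, 79.6% lay below both Thy1+ libraries in the culture. Among the miRNAs with this seed, the Thy1- libraries differed most for miR-294. miR-291b-3p was much scarcer, at 4.11 CPM in the culture, 81.1 and 142 CPM in the Thy1+ libraries, and 4.32 and 4.48 CPM in Thy1- libraries. miR-292-3p had 103 CPM in the culture, 473 and 1036 CPM in the Thy1+ libraries, and 332 and 54.4 CPM in Thy1- libraries. It was the member for which a Thy1- library came closest to a Thy1+ library in ratio.

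miR-293, which has its own seed, had 107 CPM in the culture, 1599 and 2609 CPM in the Thy1+ libraries, and 216 and 246 CPM in Thy1- libraries. In CPM it was lower in the culture than in any fresh library. Of 470 miRNAs, 79.6% lay below both Thy1+ libraries in the culture and 61.9% below both Thy1- libraries. The scaled log2 fold change of miR-293 for culture against Thy1- was -0.08. Among the 5p members, miR-292-5p was the most abundant by far, with 190 CPM in the culture, 1112 and 3259 CPM in the Thy1+ libraries, and 102 and 80.7 CPM in Thy1- libraries. Its seed partner miR-290-5p was the scarcest member, with 0.783 CPM (4 counts) in the culture, 12.8 and 53.8 CPM in the Thy1+ libraries, and 2.75 and 1.63 CPM in Thy1- libraries. The seed is thus shared by the most and the least abundant of the 5p members. miR-291a-5p had 13.7 CPM in the culture, 93.9 and 302.8 CPM in the Thy1+ libraries, and 7.46 and 8.15 CPM in Thy1- libraries. miR-291b-5p had 10.96 CPM in the culture, 26.7 and 320 CPM in the Thy1+ libraries, and 4.32 and 3.67 CPM in Thy1- libraries. The second Thy1+ library exceeded the first for 9 members, by the highest ratio for miR-291b-5p, and fell below it for miR-294.

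In Thy1+ against Thy1- cells, 9 of the 10 members were higher and none was lower. The edgeR fit called 28.0% of the 425 miRNAs tested (adjusted p below 0.05), 20.2% as higher and 7.76% as lower, and 43.5% had both Thy1+ values above both Thy1- values in CPM, as all 10 members did. No member was lower at an unadjusted p below 0.05, nor with DESeq2 or limma-voom. The median log2 fold change was 3.67 over the members, with a range of 1.46 to 4.76, and -0.07 over all miRNAs tested. Among the 3p members, miR-295 had a log2 fold change of 3.74 (SE 0.64, adjusted p = 0.0116). miR-291a-3p followed at 3.59 (SE 0.55, adjusted p = 0.0116) and miR-294 at 2.79 (SE 0.76, adjusted p = 0.0337). miR-291b-3p was higher by 4.05 (SE 0.57, adjusted p = 0.0116), and miR-293 by 2.58 (SE 0.51, adjusted p = 0.0171). miR-292-3p did not pass, with a log2 fold change of 1.46 (SE 0.79, adjusted p = 0.204). That value rests on the first Thy1- library, without which the log2 fold change was 3.23. The 4 members of the 5p arm were all called, at log2 fold changes of 3.33 for miR-290-5p, 3.97 for miR-292-5p, 4.02 for miR-291a-5p and 4.76 for miR-291b-5p. miR-291b-5p had the largest SE among the members, 1.07. With either Thy1+ library left out, no member and no other miRNA passed the adjusted threshold, while 9 members and 112 miRNAs (without the first) or 9 members and 105 miRNAs (without the second) passed at an unadjusted p below 0.05. In these fits the lone Thy1+ library was assumed to vary like the Thy1- libraries, and all 10 members kept a positive log2 fold change. Without the second Thy1+ library the log2 fold change was 2.36 for miR-291b-5p and 2.20 for miR-290-5p, and without the first it was 5.59 and 3.93 in that order, so the size of both depends on the library. miR-291a-3p stayed at 3.62 without the second and 3.58 without the first.

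White blood cell miRNAs moved in the same direction between the fresh fractions. Thy1 is also carried by T lymphocytes of the mouse. All 5 of the listed white blood cell miRNAs were higher in Thy1+, with a median log2 fold change of 3.55. Their summed level was 937 CPM in the culture, 14904 and 26540 CPM in the Thy1+ libraries, and 2017 and 1346 CPM in the Thy1- libraries. None of the 5 was at 0 in any library: miR-142-3p, the most abundant, had 818 CPM in the culture, 14318 and 25271 CPM in the Thy1+ libraries, and 1953 and 1294 CPM in Thy1- libraries, and miR-150 had the lowest value of the list in a Thy1- library, 0.204 CPM. Their part in the result for the cluster was not tested.

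**Figure D2:**
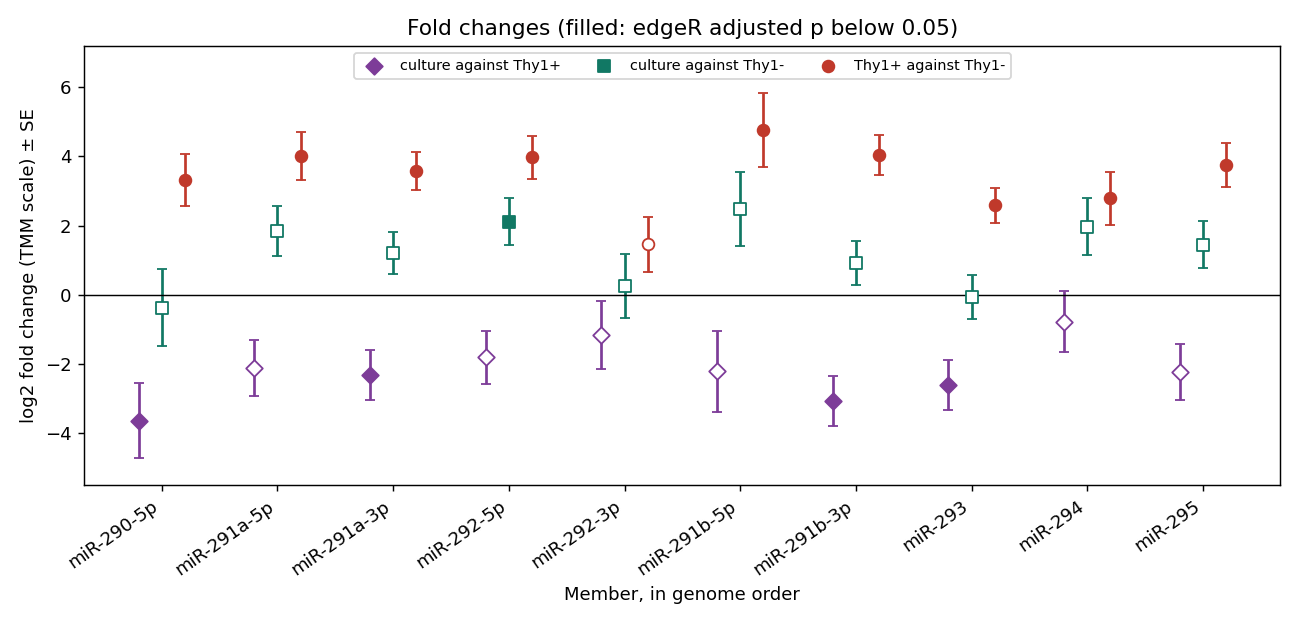
Log2 fold changes with their SE from edgeR for the 10 members (x axis, genome order) in culture against Thy1+ (purple diamonds), culture against Thy1- (green squares) and Thy1+ against Thy1- (red circles). Filled symbols mark adjusted p below 0.05, which 4, 1 and 9 of the 10 members reached in that order of comparisons.

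In the culture against fresh Thy1+ cells, 4 of the 10 members were lower. None was higher, whether with edgeR at an adjusted or unadjusted p below 0.05, with DESeq2 or with limma-voom. The edgeR fit of all 5 libraries called 22.3% of 470 miRNAs, 13.4% as lower and 8.94% as higher, and the culture lay below both Thy1+ libraries in CPM for 79.6% of the miRNAs and for all 10 members. The 4 called were miR-290-5p, miR-291b-3p, miR-293 and miR-291a-3p. Their log2 fold changes were -3.65 (SE 1.08, adjusted p = 0.0430), -3.07 (SE 0.72, adjusted p = 0.0224), -2.61 (SE 0.72, adjusted p = 0.0338) and -2.33 (SE 0.72, adjusted p = 0.0465) in that order. At an unadjusted p below 0.05, 7 members were lower with edgeR, as were 106 of all 470 miRNAs. DESeq2 called 5 members and 69 of all miRNAs lower. With limma-voom 3 members and 55 of all miRNAs were lower, without miR-290-5p (limma-voom log2 fold change -3.30, adjusted p = 0.0832). miR-295 missed the adjusted threshold at -2.24 (SE 0.81, adjusted p = 0.0730), as did miR-291a-5p at -2.13 (adjusted p = 0.0842) and miR-292-5p at -1.81 (adjusted p = 0.116). The smallest difference was that of miR-294, -0.78 (SE 0.89, adjusted p = 0.573). The median was -2.23 over the members and -0.09 over all miRNAs tested. The single culture library was assumed to vary like the fresh groups, and with either Thy1+ library left out no miRNA passed. The number of members called lower was 2 with RLE scaling, among 53 miRNAs called lower. With scaling by total counts it was 7, among 168. Mesenchymal miRNAs also differed between these libraries, with 4 of 5 higher in the culture and summed levels of 52881 CPM in the culture against 23006 and 29905 CPM in Thy1+. Of the white blood cell miRNAs 3 of 5 were lower in the culture. miR-155 of that list had the opposite sign, with a log2 fold change of 1.05, and was not called. The part of both lists in the result was not tested.

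In the culture against Thy1- cells, 1 of the 10 members, miR-292-5p, was higher, with a log2 fold change of 2.11 (SE 0.68, adjusted p = 0.0415). At an unadjusted p below 0.05, 4 members were higher, as were 108 of all 470 miRNAs. No member was lower, whether with edgeR at an adjusted or unadjusted p below 0.05, with DESeq2 or with limma-voom. Of 470 miRNAs, 34.9% were called, 18.1% as higher and 16.8% as lower. In CPM the culture lay above both Thy1- libraries for 5 members and below both for 3, against 25.5% and 61.9% of all miRNAs. The median log2 fold change was 1.33 over the members and -0.15 over all miRNAs tested, with values of 1.96 for miR-294 (adjusted p = 0.0988), 2.49 for miR-291b-5p (adjusted p = 0.106) and 1.45 for miR-295 (adjusted p = 0.136). miR-293 was at -0.08 and miR-290-5p at -0.37. With scaling by total counts the median over the members was 0.26, with 6 members positive and 4 negative, and that over all miRNAs was -1.19. The call for miR-292-5p ended when any of the 4 fresh libraries was left out, with log2 fold changes of 1.91 to 2.10. It also ended with limma-voom (2.11), with tied tags counted in full (2.09), with only the compared libraries in the fit (1.91) and with scaling by total counts (1.06). This comparison and that with Thy1+ cells share the culture library.

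The make-up of the cluster differed between libraries of the same group as well as between groups. miR-295 supplied 32.3% of the summed member counts in the culture, 28.7% and 42.9% in Thy1+, and 21.7% and 31.3% in Thy1- libraries. miR-293 supplied 11.2% in the culture, 20.99% and 15.002% in Thy1+, and 18.9% and 35.2% in Thy1- libraries. For both miRNAs the Thy1+ and Thy1- shares overlapped. miR-294 supplied 13.2% in the culture, 9.70% and 3.52% in Thy1+, and 10.4% and 3.38% in Thy1- libraries, so that its share differed between the replicates of each fresh group and hardly between the groups. miR-291a-3p held 9.47% in the culture, 17.0% and 9.21% in Thy1+, and 9.52% and 8.21% in Thy1- libraries. miR-292-3p held 10.8% in the culture, 6.21% and 5.96% in Thy1+, and 29.0% and 7.78% in Thy1- libraries. The first Thy1- library stands apart here, with miR-292-3p as its leading member. The 4 members of the 5p arm together made up 22.5% in the culture, 16.4% and 22.6% in Thy1+, and 10.1% and 13.5% in Thy1- libraries, a share with no overlap between the fresh groups. The 5p share was not tested, and no exact permutation p for 2 against 2 libraries can fall below 0.333. Most of the 5p share was miR-292-5p, at 19.9% in the culture, 14.6% and 18.7% in Thy1+, and 8.87% and 11.5% in Thy1- libraries.

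**Figure D3:**
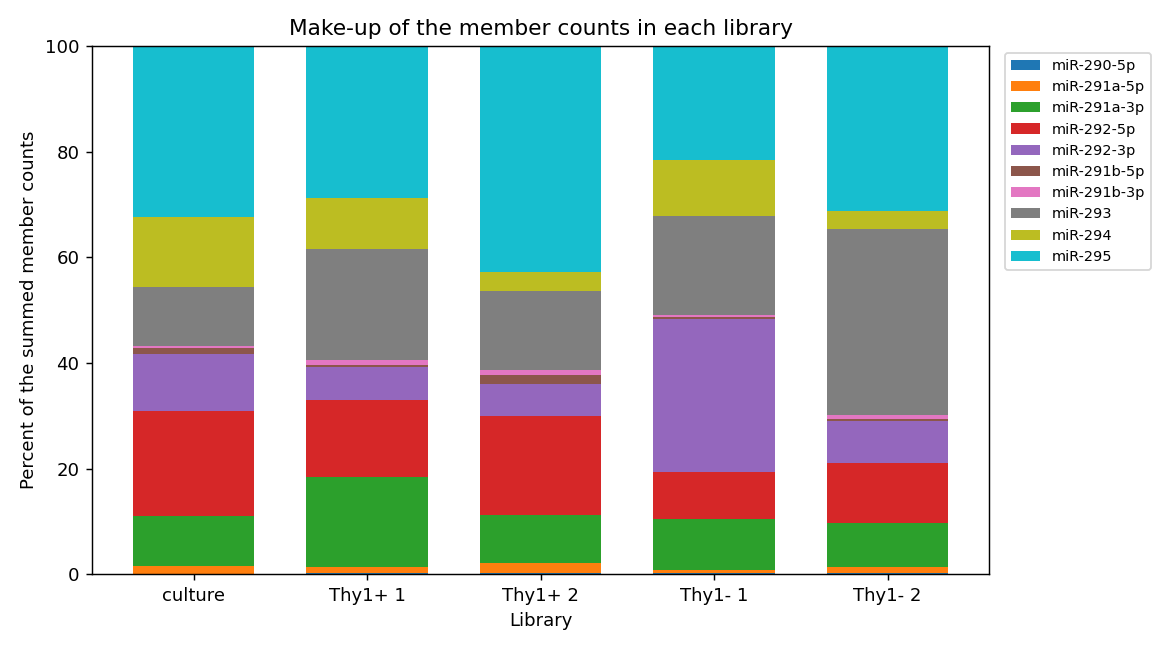
Stacked bars of the percent of the summed member counts that each of the 10 members supplied, 1 bar per library, ordered culture, Thy1+ and Thy1-. miR-295 (light blue) is widest in the second Thy1+ library at 42.9%, and miR-292-3p (violet) is widest in the first Thy1- library at 29.0%.

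The choice of arm was compared within hairpins, where the scaling of libraries has no part. In the miR-292 hairpin the 5p arm supplied 64.8% of the counts of both arms in the culture, 70.2% and 75.9% in Thy1+, and 23.4% and 59.7% in Thy1- libraries. Both Thy1+ values lay above both Thy1- values. The means were 73.0% ± 4.04 in Thy1+ and 41.6% ± 25.7 in Thy1- cells (SD, n = 2 each), a difference of 31.5 percentage points that did not pass an exact two-sided permutation test (p = 0.333, the smallest that 2 against 2 libraries allow, and adjusted p = 1 over 3 hairpins). Without the first Thy1- library the difference was 13.3 percentage points. In the miR-291a hairpin the 3p arm dominated everywhere. Its 5p arm supplied 13.2% in the culture, 6.78% and 15.9% in Thy1+, and 6.40% and 12.4% in Thy1- libraries, and the groups overlapped (exact permutation p = 0.667). In the miR-291b hairpin the 5p arm supplied 72.7% in the culture, 24.8% and 69.2% in Thy1+, and 50% and 45.0% in Thy1- libraries (exact permutation p = 1). The order of the arms was therefore reversed between the Thy1+ libraries, and the Thy1- values rest on 22 and 40 counts of both arms. Although miR-291a-5p and miR-291b-5p have nearly the same sequence, their arms thus took unlike shares of their hairpins.

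Of the other products of these hairpins, miR-293\* (5p arm) was the most abundant, with 19.2 CPM in the culture, 182 and 713 CPM in the Thy1+ libraries, and 31.8 and 17.1 CPM in Thy1- libraries. It was higher in Thy1+ than in Thy1- cells by a log2 fold change of 3.60 (SE 0.75, adjusted p = 0.0193). Its arm held 15.2% of the miR-293 hairpin in the culture, 10.2% and 21.5% in Thy1+, and 12.8% and 6.49% in Thy1- libraries, so the groups overlapped. miR-294\* had 1.17 CPM in the culture, 9.60 and 47.5 CPM in the Thy1+ libraries, and 1.18 and 0.611 CPM in Thy1- libraries, with a log2 fold change of 4.38 for Thy1+ against Thy1- (adjusted p = 0.0174). miR-295\* and miR-290-3p were too scarce to be tested, with at most 7 and 5 counts in any library. In the miR-295 hairpin the 3p product was thus almost the sole one, and the minor arm stayed at or below 0.463%.

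The 5′ end of a miRNA sets its seed. No tag in the files starts before the annotated base 1 or ends past the annotated 3′ end, so only later starts and earlier ends could be seen. 2 members had an appreciable share of tags that start at base 2. For miR-292-3p this share was 38.1% in the culture (interval 34.0 to 42.4), 37.5% and 31.9% in Thy1+, and 13.6% and 17.2% in Thy1- libraries, so the culture and Thy1+ values lay above both Thy1- values. For comparison, 13.1% of 183 other miRNAs with at least 100 counts in every library had a higher share in both Thy1+ than in both Thy1- libraries. For miR-295 the share was 16.9% in the culture, 20.5% and 14.4% in Thy1+, and 14.2% and 18.1% in Thy1- libraries, and it did not separate the groups. In no library did another member exceed 4.98%, and the median of the 183 other miRNAs was 0.435% to 0.586%. Printed next are 2 exact tags of miR-295 that reach the annotated 3′ end, as deposited, with capitals at tag bases 2 to 8. They show that the later start moves the seed by 1 base. The percents of both forms count these exact tags only, not tags with other 3′ ends or mismatches.
miR-295 from base 1: aAAGTGCTactacttttgagtct
miR-295 from base 2: aAGTGCTActacttttgagtct
The form from base 1 made up 63.2% of the miR-295 counts in the culture, 46.0% and 69.4% in Thy1+, and 64.8% and 54.5% in Thy1- libraries. The form from base 2 made up 12.1% in the culture, 12.5% and 11.4% in Thy1+, and 11.2% and 13.9% in Thy1- libraries, a narrow range over all 5 libraries.

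**Figure D4:**
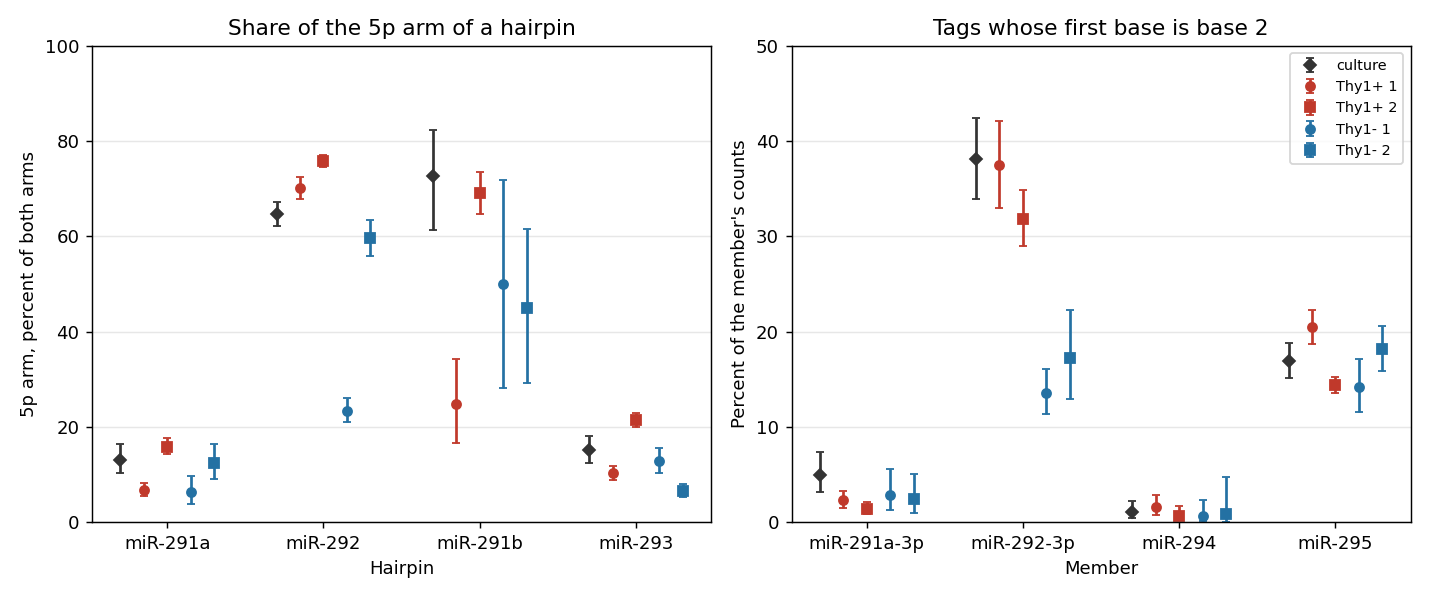
Left, percent of the counts of both arms that came from the 5p arm of 4 hairpins. Right, percent of a member's counts whose tag starts at base 2, with 1 point per library and exact 95% intervals (culture dark grey, Thy1+ red, Thy1- blue). Thy1+ points lie above Thy1- points for the miR-292 hairpin on the left (exact permutation p = 0.333) and for miR-292-3p on the right (not tested). miR-295 starts at base 2 in 14.2% to 20.5% of its counts in every group.

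The 3′ ends also differed between members. This measure and the last base below were chosen after their values were seen and are given without a test. Tags ending 2 or more bases short of the annotated end made up 12.0% of the miR-292-3p counts in the culture, 29.8% and 38.4% in Thy1+, and 76.4% and 74.5% in Thy1- libraries. In the first Thy1- library 73.2% of the miR-292-3p counts ended exactly 2 bases short. For miR-293 the shortened share was 16.1% in the culture, 29.2% and 15.8% in Thy1+, and 39.0% and 56.2% in Thy1- libraries. For miR-292-5p it was 13.4% in the culture, 18.7% and 13.7% in Thy1+, and 23.2% and 36.9% in Thy1- libraries. For all 3, the culture and both Thy1+ libraries had a smaller shortened share than both Thy1- libraries. miR-295 followed the same order at lower shares, with 3.17% in the culture, 6.97% and 2.86% in Thy1+, and 8.69% and 13.0% in Thy1- libraries. The other 183 miRNAs had medians of 4.72% in the culture, 6.33% and 6.09% in Thy1+, and 7.80% and 8.30% in Thy1- libraries, and 36.6% of them had a lower shortened share in both Thy1+ than in both Thy1- libraries, against 3.83% with the opposite order. Of the 10 members, 5 had the lower share in both Thy1+ libraries, namely these 4 and miR-290-5p, and in the other 5 (miR-291a-5p, miR-291a-3p, miR-291b-5p, miR-291b-3p and miR-294) the fresh groups overlapped. The order of the libraries is therefore common among miRNAs, and miR-292-3p, miR-293 and miR-292-5p had larger shares than the median in every library. miR-295 lay below the median in the culture and the second Thy1+ library and above it in the other 3. The tags of miR-293 show where the ends lie, with capitals at bases 2 to 8. Percents of these forms count the exact tags only.
miR-293, 22 bases: aGTGCCGCagagtttgtagtgt
miR-293, 20 bases: aGTGCCGCagagtttgtagt
miR-293, 19 bases: aGTGCCGCagagtttgtag
The 22-base form made up 68.2% of the miR-293 counts in the culture, 51.3% and 69.6% in Thy1+, and 46.3% and 24.5% in Thy1- libraries. The 20-base form varied less, at 12.6% in the culture, 19.6% and 12.4% in Thy1+, and 16.2% and 18.0% in Thy1- libraries. The 19-base form was 2.74% in the culture, 6.74% and 2.22% in Thy1+, and 19.4% and 32.4% in Thy1- libraries. In the second Thy1- library it was more frequent than the annotated full length. All 3 forms carry the same seed.

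**Figure D5:**
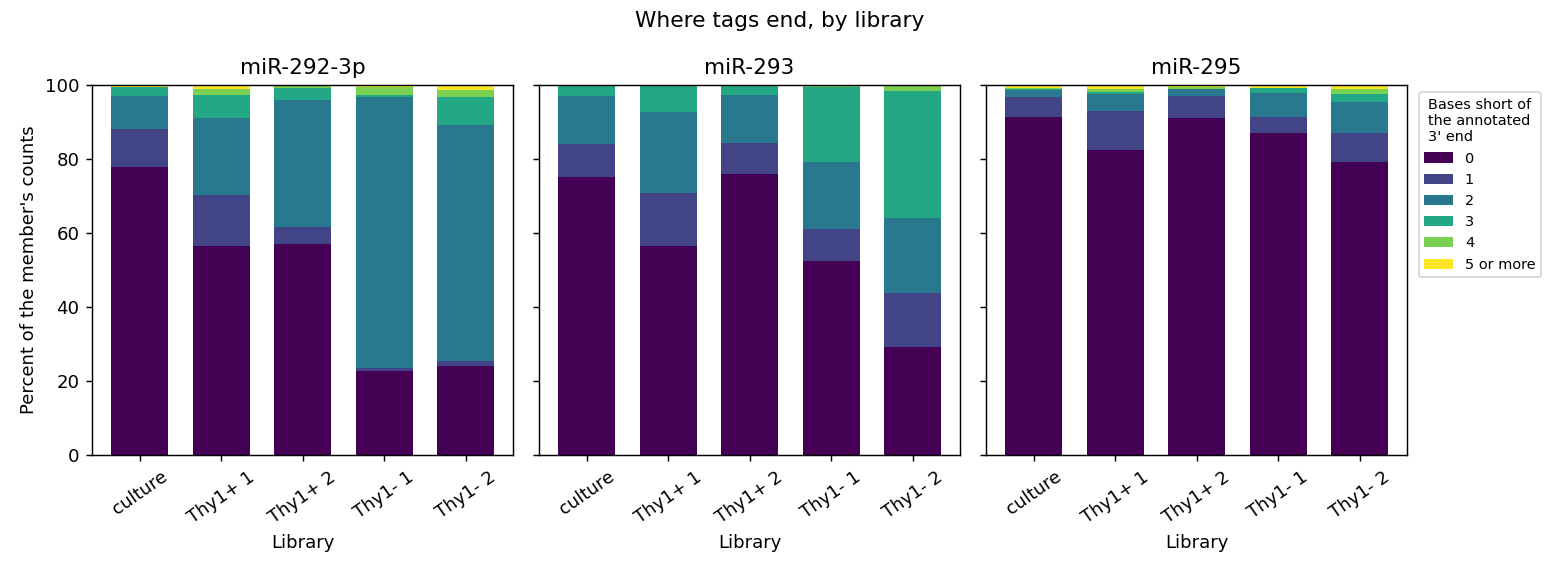
Stacked bars of the percent of a member's counts by the number of bases that the tag ends short of the annotated 3′ end, for miR-292-3p, miR-293 and miR-295, 1 bar per library, ordered culture, Thy1+ and Thy1-. The full-length part (darkest) of miR-292-3p is 77.8% in the culture, 56.4% and 57.1% in Thy1+, and 22.8% and 24.0% in Thy1- libraries.

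Some tags of miR-295 had C in place of the last base, written U23C (RefSeq base, position from the 5′ end, tag base). They made up 9.06% of its counts in the culture, 16.2% (interval 14.6 to 17.9) and 3.67% in Thy1+, and 2.37% and 4.93% in Thy1- libraries. In such tags a changed last base and a C added to a shorter form cannot be told apart. The 3′ end measure above counts them as full length. The first Thy1+ library was the highest and the groups overlapped. Over 161 other miRNAs the median share of tags with C in place of the last base was at most 0.116% in any library. The highest share among these miRNAs was 7.71% in the culture, 8.62% and 12.4% in Thy1+, and 6.72% and 8.14% in Thy1- libraries, so miR-295 exceeded all of them in the culture and in the first Thy1+ library only.

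Other miRNAs with the core AAGUGC at bases 2 to 7 were examined next. This core was read from the tags of 12 of the 524 names with readable bases (2.29%), and 6 of them lie outside the hairpins of the cluster: miR-302a, miR-302b, miR-302d, miR-467a, miR-467c and miR-467d. Of the 3 that could be tested, miR-467c was higher in Thy1+ than in Thy1- cells, against 20.2% of the 425 miRNAs tested. All 3 were higher in the culture than in Thy1- cells, against 18.1% of 470 miRNAs. In the scaled fit of culture against Thy1+ none of the 3 was called. Their log2 fold changes there were 0.98 to 1.33, opposite in sign to the member median of -2.23. In CPM all 3 were lower in the culture than in both Thy1+ libraries, so the sign depends on the scaling. miR-467a, the most abundant, had 457 CPM in the culture, 919 and 494 CPM in the Thy1+ libraries, and 200 and 128 CPM in Thy1- libraries. Its log2 fold change was 1.62 (SE 0.58, adjusted p = 0.0710) for Thy1+ against Thy1- and 2.55 (SE 0.68, adjusted p = 0.0212) for culture against Thy1-. Both comparisons share the Thy1- libraries. miR-467c had 229 CPM in the culture, 324 and 242 CPM in the Thy1+ libraries, and 26.3 and 49.5 CPM in Thy1- libraries. The cluster of miR-302 and miR-367, another cluster known from pluripotent cells, was near the floor: its 8 products together had 8 counts in the culture, 7 and 4 in Thy1+, and 3 and 3 in Thy1- libraries, and none could be tested.

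The profile of the summed cluster over the 5 libraries was set against those of 271 other miRNAs with a mean of at least 50 CPM, by the root mean square difference of log2(CPM + 1) centred on each miRNA's mean. The nearest was miR-142-5p (difference 0.36), followed by miR-142-3p (0.42), miR-466i (0.56), miR-297c (0.61) and miR-129-5p (0.61). miR-142-5p had 24.3 CPM in the culture, 222 and 749 CPM in the Thy1+ libraries, and 45.1 and 35.4 CPM in Thy1- libraries. miR-129-5p had 210 CPM in the culture, 1848 and 1410 CPM in the Thy1+ libraries, and 121 and 120.0 CPM in Thy1- libraries. Both were high in the Thy1+ libraries, and both miR-142 products stand on the list of white blood cell miRNAs above. They are the 2 arms of 1 hairpin, and no other miRNA of that list was among the 5 nearest. From the same list, miR-155 was higher in the culture than in Thy1- cells (log2 fold change 4.55, adjusted p = 0.0022).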

How the data were processed

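The deposited files list raw counts per distinct sequence tag, without normalization, and place each tag on mature miRNAs with at most 2 mismatches. The annotation was miRBase 12, per the file names, and per the labels' protocols RNA was isolated with Trizol for Illumina small RNA libraries, including the v1.5 variant. DESeq stands in the submitters' processing notes with neither version nor role. Adapter removal and aligner: not given in the sources used here. The tags span 15 to 25 bases, and the totals are miRNA counts, not sequencing depths.

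Each tag was given to the miRNA of its fewest mismatches, ties were split equally, and sums were rounded. Tags with 0 mismatches made up 87.6% to 90.2% of the member counts, and ties were at most 0.115% of them. Differential abundance used edgeR 4.0.16 in R 4.3.3 (quasi-likelihood test, TMM, filterByExpr, two-sided, Benjamini-Hochberg adjustment over all miRNAs tested). Every adjusted p of a miRNA is from edgeR, except the 1 given for miR-290-5p with limma-voom. Thy1+ was compared with Thy1- in a fit of the 4 fresh libraries, and the culture in a fit of all 5. Arm shares were compared by exact permutation tests. The script was tested on simulated data. The alternatives were DESeq2 1.42.0, limma-voom (limma 3.58.1), other scalings and filters, other rules for tied and mismatched tags, a replicate block and leaving out each library.

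Named miRNAs are the 10 members, the other products of their hairpins, the 5 nearest profiles, and at most the 2 most abundant tested products of a list. miR-150, miR-155, miR-449a and the untested seed relatives were named outside this rule, after their values were seen. The members and lists were chosen with earlier results of these data known.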

Additional observations from a re-analysis of the deposited data

How the results depend on the processing

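With all fresh libraries in the fit, 9 members were higher in Thy1+ than in Thy1- cells under each alternative but the replicate block, which gave 7 (without miR-290-5p, at 3.15 and adjusted p = 0.0587, and miR-291b-5p, at 4.09 and adjusted p = 0.0539) and 32 miRNAs called in all, against 119. The labels do not say that equal replicate numbers pair libraries, and the deviations of same-numbered libraries correlated at -0.062 over 425 miRNAs. The culture comparisons have a single culture library and no block. Leaving out 1 library gave 0 to 10 members and 0 to 137 miRNAs called in Thy1+ against Thy1-. In culture against Thy1+, the members called lower were 2 with RLE scaling, 7 with total-count scaling (177 miRNAs called, against 105), 2 with tied tags counted in full, 8 with only the compared libraries in the fit, and 0 to 4 on leaving out 1 library (0 to 120 miRNAs). In culture against Thy1-, the members called higher were 0 with total-count scaling, limma-voom, tied tags counted in full or only the compared libraries (then 0 miRNAs in all, 171 at an unadjusted p below 0.05), 4 without a filter, 2 with 0 mismatches, and 0 to 1 on leaving out 1 library (41 to 128 miRNAs). Total-count scaling shifted the all-miRNA median (log2) by 0.58 in Thy1+ against Thy1-, by -1.64 in culture against Thy1+ and by -1.04 in culture against Thy1-. In the last comparison it turned miR-292-3p to -0.90 and miR-291b-3p to -0.10, tied tags left out turned miR-293 to 0.044, and leaving out 1 library gave -0.49 to 1.63 for miR-292-3p and -0.49 to 0.19 for miR-293. The culture share of the cluster was 0.0905% with 0 mismatches, 0.100% with tied tags left out and 0.0895% with them in full, and miR-295 then made up 30.4% of it with 0 mismatches. The difference in 5p arm share, Thy1+ minus Thy1-, ranged from -2.63 to 6.49 percentage points for miR-291a and from -22.7 to 21.7 for miR-291b on leaving out 1 library, and was 0.213 for miR-291b with tied tags left out. The cause of these shifts was not tested. Depth limits miR-290-5p, which rests on 4 to 51 counts per library, and the miR-291b arms in Thy1- cells.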
